A study of Mus musculus with 8 samples.

Results

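The nuclear genes for the subunits of oxidative phosphorylation were followed through 8 libraries of neural tissue from mouse embryos of diabetic mothers. They were chosen by gene symbol alone: symbols that begin with Nduf and a letter a, b, c, s or v and a digit, the 4 Sdh genes, symbols that begin with Uqcr or Atp5, the subunit symbols from Cox4 to Cox8, and Cyc1 and Cycs. That rule took 87 of the 26608 gene symbols in the files: 37 of complex I, 4 of complex II, 9 of complex III, 18 of complex IV, 15 of complex V, Cycs, and 3 that encode no subunit (Cox4nb, now called Emc8, Atp5s and Atp5sl, now called Dmac2). The last 3 are counted among the 87 but stand in no complex. Cox7a2l, counted with complex IV, encodes an assembly factor related to a subunit, and Ndufab1, the acyl carrier protein of complex I, has a symbol outside the rule.

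Oxidative phosphorylation takes place in the inner mitochondrial membrane. Complex I (NADH dehydrogenase) and complex II (succinate dehydrogenase) pass electrons to ubiquinone, complex III (the cytochrome bc1 complex) passes them to the small carrier cytochrome c, and complex IV (cytochrome c oxidase) hands them to oxygen. Complexes I, III and IV pump protons, and complex V (ATP synthase) uses the returning protons to make ATP. Most subunits are encoded in the nucleus and a few in mitochondrial DNA; all subunits of complex II are nuclear. Tissue of this embryonic stage is known to draw much of its energy from glycolysis, with the oxidative system maturing as the circulation begins.

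All 8 libraries came from FVB embryos at embryonic day 8.5 whose dams were diabetic, so no group used here comes from non-diabetic mothers, and the labels do not say how diabetes arose. Tissue was cut by laser from frozen sections. The 4 open neural tube libraries (named by their titles as 9, 10, 13 and 14) hold tissue of normal shape taken just in front of the first closure site. The 4 protrusion libraries (1 to 4) hold outgrowths of the open neural plate; protrusion 1 is labelled as separated, protrusions 2 to 4 as attached, and protrusions 1 and 2 have titles with a common stem. Values per library are given below in that order, 9, 10, 13, 14 and 1 to 4. The labels do not say that libraries come from separate embryos, so the p-values measure the spread between these samples, which may be technical.

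Expression was read by SAGE, in which 1 short tag per transcript is sequenced, so levels are CPM (the count scaled to a library total of 1000000 reads) without division by gene length. Libraries held 5668054 to 16655583 reads. A count of 0 allows up to 3 reads, which is 0.180 to 0.529 CPM depending on the library; this covers counting error only. The libraries differed by group in how many genes they missed: 3280 genes averaged between 5 and 20 CPM, and an open neural tube library had 4.85 to 18.8% of them without a read, a protrusion library 0.0915 to 0.549%. Of 6 marker lists of cell types, only paraxial and streak mesoderm had summed levels that did not overlap between the groups. The summed level of 8 neural tube markers was 225 to 1079 CPM in open neural tube and 452 to 1146 CPM in protrusions. That of 6 markers of paraxial and streak mesoderm was 34.4 to 201 CPM against 361 to 984 CPM, with Tbx6 past the threshold at 0.583 ± 0.555 CPM in open neural tube and 188 ± 123 CPM in protrusions (SD, n = 4 each). Of 6 blood markers 1 was at 0 in every library, and their sum was 1.06 to 1007 CPM in open neural tube and 0.430 to 45.8 CPM in protrusions; for 5 endothelial markers the sums were 2.57 to 148 and 0.574 to 25.0 CPM. The sums of surface ectoderm (32.8 to 261 and 53.2 to 95.8 CPM) and endoderm markers (14.6 to 44.8 and 9.98 to 36.1 CPM) overlapped as well. The part of missed genes and of other cell types in the differences below was not tested.

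SAGE counts a subunit only through its tag, but the expected tag did not settle which members had reads. The kit's enzyme, known from the kit's design and not from the labels, cuts at CATG, and the tag is the site nearest the 3′ end of the transcript with the 22 bases after it. Expected tags were read from the annotated main transcript of all 87 genes (GENCODE M21, build GRCm38; the files were made on another build). The tags below are shown because they carry the abundance, a change or an absence described later; capitals mark the enzyme site, and each tag lies in the 3′ untranslated region. Atp5b and Cox7b are the most abundant subunits, Ndufa12 had the smallest p, Ndufs5 had 0 reads with a tag of its own, Atp5l had 0 reads with a tag shared with a pseudogene, and the Atp5g1 tag occurs in many genes.
Atp5b (chr10:128090187-128090212, plus strand): CATGcaggccacacaagagccttgat
Cox7b (chrX:106021999-106022024, plus strand): CATGgtgacttctcatttatttaagc
Ndufa12 (chr10:94221136-94221161, plus strand): CATGgctggttgataagggcaggctg
Ndufs5 (chr4:123712773-123712798, minus strand): CATGctctgttttcccctggagagaa
Atp5l (chr9:44913292-44913317, minus strand): CATGtgtaacaggactgctatctgaa
Atp5g1 (chr11:96068939-96068964, minus strand): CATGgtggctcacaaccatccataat

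Of the 87 genes, 73 had a full tag found in no gene elsewhere, and 8 of these (11%) were at 0 in all 8 libraries. Genes at an overlapping position were not counted as elsewhere. Such a gene holds the tag of Cox5a (Gm26631), Ndufb2 (Braf), Ndufb8 (Gm20538) and Uqcrc2 (Pdzd9). Braf had 2403 reads over all libraries beside 2439 for Ndufb2, so the level of Ndufb2 is uncertain. Another 6 had a tag that also occurs in a gene elsewhere in the genome, and 4 of them (66.7%) were at 0. Over all 20589 genes matched in the same way the shares at 0 were 19.4% for own tags and 70.6% for tags shared with a gene elsewhere. The 4 were Atp5l, whose tag is also in Gm9391, Cox5b (Gm11273), Cox7c (Gm10012) and Atp5g2 (Gm10175); the tags of the last 3 differ between annotated transcripts. Atp5f1 (shared with Gm12231) and Atp5g1 (shared with 56 other genes) had reads, and their levels are uncertain for that reason. The tag of 7 more, Atp5e, Cycs, Ndufs1, Ndufs6, Uqcr10, Uqcrb and Cox8b, would run past the annotated end of the transcript, which leaves 4 to 17 bases; 1 of them, Ndufs6, was at 0. Cox7a2 has no site at all and was at 0. The treatment of a tag that fits more than 1 gene is not given in the sources.

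**Figure D1:**
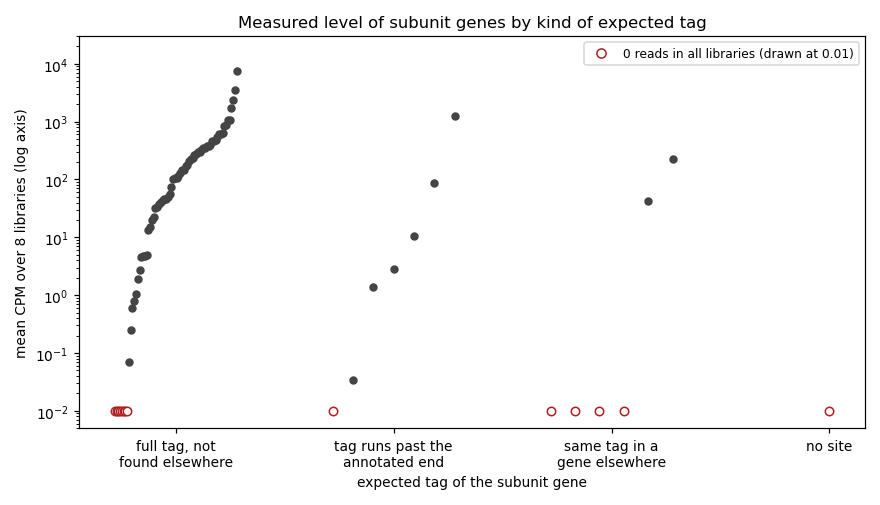
Mean level of each subunit gene over the 8 libraries (CPM, log axis) by the kind of its expected tag; each point is a gene, and open red circles at the bottom are genes with 0 reads in every library. Of the 14 genes with 0 reads, 4 sit among the 6 genes whose tag occurs elsewhere and 8 among the genes with a full tag of their own.

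In all, 14 members had 0 reads in every library. In complex I these were Ndufs5, Ndufs6, Ndufc2 and Ndufb4. In complex IV they were Cox5b and Cox7c, subunits made in all tissues, Cox7a2, Cox6a2 (the heart and muscle form), and Cox7b2 and Cox8c (forms known from testis). In complex V they were Atp5g2, Atp5j, Atp5l and Atp5o. Cells with a working ATP synthase need Atp5j and Atp5o, parts of its stalk, so 0 tags does not show that the transcript was absent.

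Among the 73 members with a read, levels differed widely. The mean over 8 libraries was at least 1000 CPM for 7 members, 100 to 1000 CPM for 33, 10 to 100 CPM for 18 and under 10 CPM for 15. Atp5b, the catalytic beta subunit of ATP synthase, was the 8th most abundant gene of all and took 24.5% of all member reads and 70.6% of the reads of complex V. The 4 most abundant members, Atp5b, Cox7b, Cox4i1 and Cox8a, took 49.5% and the first 10 took 68.6%. Cox7b, a small subunit of cytochrome c oxidase, took 35.4% of complex IV reads, whereas Ndufb6, the most abundant gene of complex I, took 11.1% of that complex.

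Subunits that are built into 1 complex in fixed numbers had very unequal tag levels. Atp5b stood 13.5-fold above Atp5a1, the alpha subunit that shares the catalytic head with it, and 696-fold above Atp5e, the epsilon subunit, whose expected tag runs past its annotated end. Sdha, the flavoprotein of complex II, stood 378-fold above Sdhc, a membrane anchor. Across genes these ratios compare tag levels, which depend on the tag as well as on the transcript. Members of at least 100 CPM varied between libraries with a median coefficient of variation of 23.7% (8.72 to 64.9%), beside 26% for all 1893 genes at that level.

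**Figure D2:**
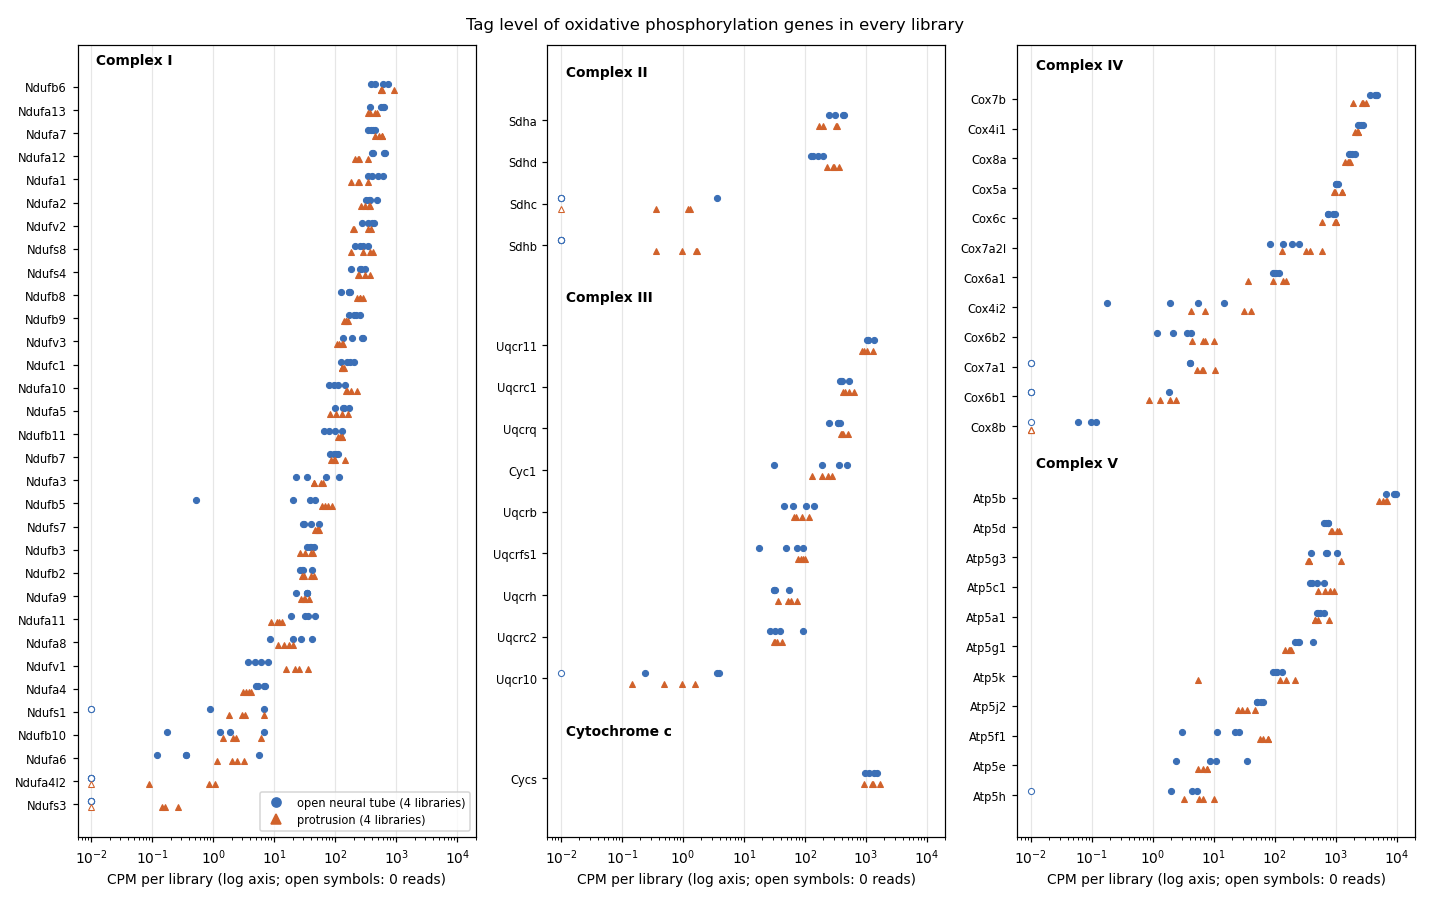
Level of subunit genes with a read, in CPM on a log axis, with 1 symbol per library (circles, open neural tube; triangles, protrusions; open symbols at the left edge, 0 reads), ordered by mean level within each complex. Atp5b and Cox7b stand at the top of complexes V and IV, and several genes such as Ndufv1, Atp5f1, Ndufa12 and Sdhd show separate groups.

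The question put by the design is how protrusions differ from open neural plate of normal shape. The reads of all members together were 33620, 31572, 33598 and 30550 CPM in the open neural tubes and 28197, 29292, 28488 and 26428 CPM in the protrusions. The groups did not overlap, with 32335 ± 1529 CPM in open neural tube and 28101 ± 1208 CPM in protrusions (SD, n = 4 each), a ratio of 0.869. Members made up 3.06 to 3.36% of the reads of an open neural tube library and 2.64 to 2.93% of those of a protrusion library. In tissue samples such as these, fewer cells of a type and less RNA per cell cannot be told apart.

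Most of that gap lay in 2 genes. Without Atp5b and Cox7b, the remaining subunits summed to 19201 ± 419.5 CPM in open neural tube and 19041 ± 785 CPM in protrusions (SD, n = 4 each), a ratio of 0.992 with overlapping groups. All sums here and by complex are shares of the library totals, and their ratios depend on that choice. With TMM library sizes the ratio of all members was 0.816 in place of 0.869. Members under 100 CPM went the other way, with 729.6 ± 46.7 CPM in open neural tube and 860.1 ± 26.6 CPM in protrusions (SD, n = 4 each) and no overlap between the groups. Most of that rise lay in Atp5f1 and Ndufb5. In open neural tube 10 these had 17 and 3 reads, and the Atp5f1 tag is shared with a pseudogene. Atp5f1 was at 15.9 CPM in open neural tube and 68.8 CPM in protrusions, and Ndufb5 at 26.7 and 73.8 CPM. Of the 27 tested members under 100 CPM, 16 had a log2 fold change above 0 and 11 below. Genes averaging 5 to 20 CPM were missed more often by the open neural tube libraries, as given above, and the part of this in the rise was not tested.

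Summed by complex, complex IV was lower in protrusions without overlap, at 10784 ± 422 CPM in open neural tube and 8961 ± 685 CPM in protrusions (SD, n = 4 each). Without Cox7b its ratio was 0.975. Complex V summed to 11570 ± 1592 CPM in open neural tube and 9405 ± 1245 CPM in protrusions (SD, n = 4 each), with overlapping groups, and its ratio of 0.813 became 1.10 without Atp5b. The ratios of complexes I, II and III were 0.924, 1.09 and 1.01, all with overlapping groups.

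**Figure D3:**
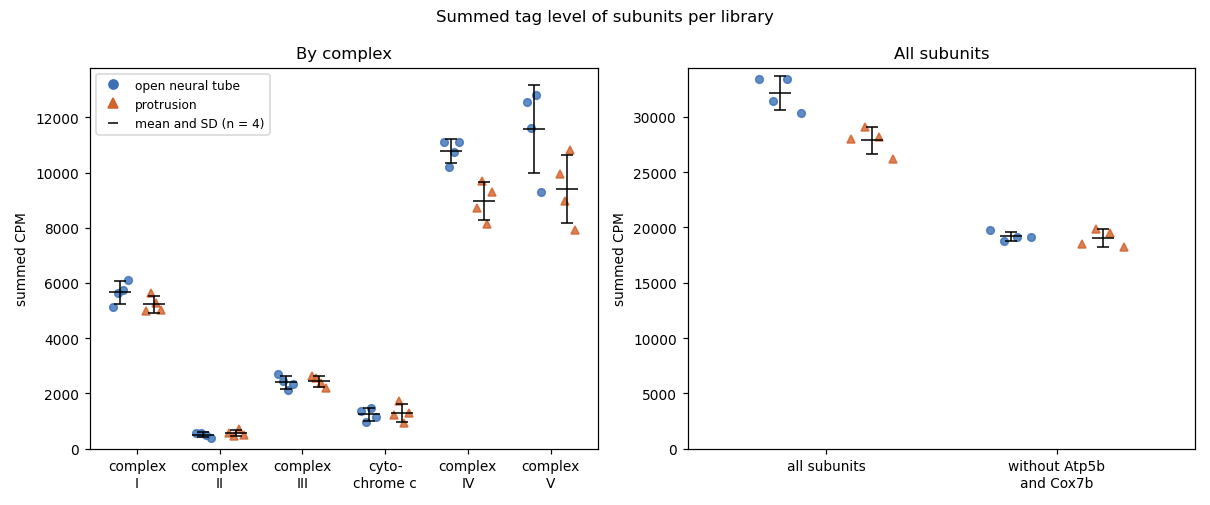
Summed CPM of the subunits of each complex (left) and of all subunits with and without Atp5b and Cox7b (right), with 1 symbol per library and the mean ± SD of 4 libraries in black. Complex IV and the sum of all subunits separate the groups, while the sum without Atp5b and Cox7b overlaps, at 19201 ± 420 CPM in open neural tube and 19041 ± 785 CPM in protrusions.

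Gene by gene, 67 of the 87 members had enough reads to be tested, and 0 passed an adjusted p of 0.05 in edgeR's quasi-likelihood test, where 0.607% of all 11036 genes tested passed. The smallest adjusted p was 0.0557, for Ndufa12. At an unadjusted p under 0.05 stood 17 members (7 higher and 10 lower in protrusions), which is 25.4% beside 15.3% of all genes tested. Among genes of at least 100 CPM the shares were 32.5% of members (13 of 40) and 33.9% of all genes, so at like abundance the members' share was near the background.

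The groups did not overlap for 21 members (11 higher and 10 lower in protrusions), or 31.3% beside 13.4% of all genes tested. At 100 CPM or more the shares were 32.5% (13 of 40) and 21.8%. DESeq2's Wald test, run as an alternative, called 11 members (4 higher, 7 lower), or 16.4% beside 7.2% of all genes. The log2 fold changes had a median of 0.01 over the members and 0.08 over all genes tested, with 34 members above 0 and 33 below. Both directions occurred in each complex with more than 2 tested genes.

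**Figure D4:**
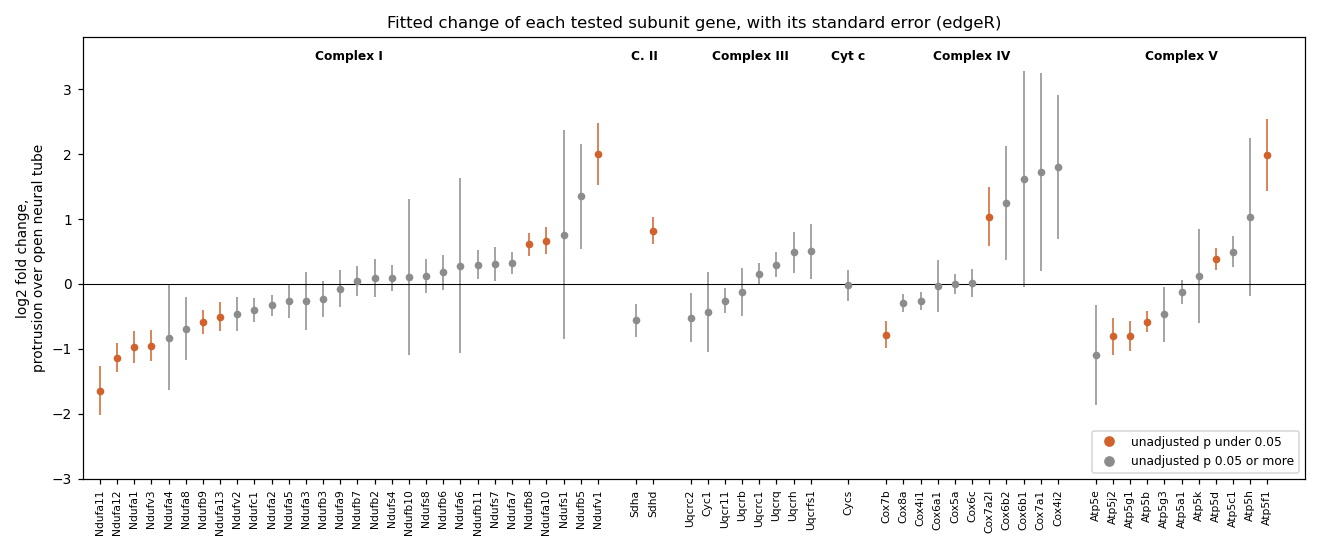
Log2 fold change of protrusion over open neural tube for the tested subunit genes, with its standard error as the bar, ordered within each complex; orange marks an unadjusted p under 0.05. Both directions occur within complexes I and V, from -1.64 for Ndufa11 to 2.0 for Ndufv1.

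In complex I, 31 of 37 genes were tested, and their log2 fold changes had a median of -0.07. At an unadjusted p under 0.05 in edgeR stood 9 of them (3 higher, 6 lower). That share of 29.0% stood beside 15.3% of all genes tested and 33.9% of those of at least 100 CPM. The arm in the matrix, which holds the flavin and the iron-sulfur clusters, had a median of 0.01 over 14 tested genes, and the membrane arm, which pumps the protons, had -0.09 over 16. Ndufa12, an accessory subunit of the matrix arm, read 419, 400.1, 655 and 632 CPM in the open neural tubes and 209, 237, 342 and 246 CPM in the protrusions. Every protrusion was below every open neural tube, with a log2 fold change of -1.13 ± 0.22 (SE; adjusted p = 0.0557, edgeR). It is the member closest to the threshold and passed it under 6 of 17 alternative fits.

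Ndufa11, an accessory subunit of the membrane arm, was at 19.1, 47.5, 32.5 and 35.9 CPM in open neural tube and 10.961, 13.6, 9.01 and 11.8 CPM in protrusions. Its groups were apart as well, with a log2 fold change of -1.64 ± 0.38 (adjusted p = 0.0785, edgeR). Ndufa1, a membrane-arm subunit needed for assembly, read 497, 397, 347 and 602 CPM and 243, 181, 234 and 341 CPM. Here too each protrusion lay below each open neural tube (log2 -0.97 ± 0.25, adjusted p = 0.0832, edgeR).

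Genes of the NADH-oxidising end of the matrix arm pointed both ways. Ndufv1, the subunit that binds NADH and the flavin, was low, at 7.90, 3.70, 4.80 and 6.09 CPM in open neural tube and 15.5, 21.9, 35.3 and 25.4 CPM in protrusions. All 4 protrusions were above all 4 open neural tubes (log2 2.004 ± 0.48, adjusted p = 0.0803, edgeR). Its partner Ndufv2, which carries an iron-sulfur cluster, was at 272 to 436 CPM in open neural tube and 197 to 389 CPM in protrusions, with overlap. Ndufv3, a small accessory protein of the same module, read 136, 284, 189 and 280.1 CPM and 106, 128, 116 and 135 CPM, so that protrusions were lower without overlap (log2 -0.95 ± 0.24, adjusted p = 0.0832, edgeR).

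The 3 most abundant tested genes of complex I did not show that pattern as a group. Ndufb6 in the membrane arm read 445, 393, 745 and 601 CPM and 566, 925, 578 and 556 CPM, with protrusion 2 far above the others. Ndufa13, also known as GRIM-19 and required for assembly, read 572, 376, 629 and 611 CPM and 368, 478, 346 and 449.7 CPM, overlapping through open neural tube 10 (log2 -0.50 ± 0.23, adjusted p = 0.323, edgeR). Ndufa7 read 391, 447, 343 and 417 CPM and 576, 578, 449 and 517 CPM, higher in each protrusion by a small step (log2 0.33 ± 0.17, adjusted p = 0.395, edgeR).

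Among the other membrane-arm genes, Ndufb8, whose protein is widely used as a marker of assembled complex I, read 124, 176, 166 and 166 CPM and 252, 257, 231 and 284 CPM. Ndufa10 was at 80.4 to 145 CPM in open neural tube and 152 to 231 CPM in protrusions, and Ndufb5 at 0.529 to 47.3 CPM in open neural tube and 60.9 to 89.6 CPM in protrusions. These 3 were higher in every protrusion, with adjusted p of 0.112, 0.148 and 0.488 in edgeR. Ndufb9 was lower in every protrusion, at 169 to 254 CPM in open neural tube and 141 to 159.7 CPM in protrusions (adjusted p = 0.146, edgeR). The core subunits Ndufs7 and Ndufs8, which carry part of the electron path, had overlapping groups and adjusted p of 0.664 and 0.882 in edgeR. The largest core subunit, Ndufs1, was low, at 0 to 6.91 CPM in open neural tube and 1.80 to 6.74 CPM in protrusions; its expected tag also runs past the annotated end.

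In complex II only Sdha and Sdhd had enough reads to be tested. Sdhd, the smaller membrane anchor, read 164, 125, 201 and 136 CPM in open neural tube and 233, 301, 363 and 292 CPM in protrusions. All protrusions were higher (log2 0.82 ± 0.21, adjusted p = 0.0832, edgeR). Sdha, which oxidises succinate, read 414, 438, 305 and 249.6 CPM and 323, 169.8, 334 and 196 CPM, with overlap and a log2 fold change of -0.56 ± 0.26 (adjusted p = 0.332, edgeR). Sdhb, the iron-sulfur subunit, was at 0 in the 4 open neural tubes and at 0.982, 1.72, 1.66 and 0.361 CPM in the protrusions, which is 3 to 19 reads. Sdhc, the larger anchor, was at 0 to 3.55 CPM in open neural tube and 0 to 1.29 CPM in protrusions.

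In complex III 8 of 9 genes were tested, and 0 stood at an unadjusted p under 0.05 in edgeR. The median log2 fold change was 0.02. It was -0.26 without protrusion 1, where the low-count filter was applied anew and the tested genes may differ. Uqcr11, the smallest subunit and the most abundant here, read 1376, 1090.1, 1092 and 1053 CPM and 1019.7, 1292, 938 and 850.5 CPM. Uqcrc1, a core subunit, was at 379 to 519.6 CPM in open neural tube and 413 to 630.5 CPM in protrusions. Uqcrq, a small subunit, was the only gene of the complex without overlap, at 380.2, 251, 348 and 343 CPM and 508, 412, 422 and 391 CPM (log2 0.29 ± 0.19, adjusted p = 0.526, edgeR). Uqcrh, the acidic hinge protein that helps cytochrome c dock, overlapped (adjusted p = 0.532, edgeR).

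The rule took 2 nuclear genes for c-type cytochromes. Cyc1, the heme protein of complex III that reduces cytochrome c, read 366, 492, 30.9 and 189 CPM and 273, 193, 131 and 235 CPM. Its lowest and highest values were both in open neural tube, in libraries 13 and 10. Cycs, cytochrome c itself, which also triggers apoptosis once released, read 1376, 957, 1488 and 1137 CPM and 1231, 1714, 928 and 1298 CPM (log2 -0.02 ± 0.24, adjusted p = 0.984, edgeR); the groups overlapped, and its expected tag is 11 bases long up to the annotated end.

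Complex IV had 11 of 18 genes tested and a median log2 fold change of 0.02. Cox7b read 4350.1, 3689, 4591 and 4675 CPM in open neural tube and 2737, 3151, 1927 and 2837 CPM in protrusions. Each protrusion was below each open neural tube (log2 -0.78 ± 0.20, adjusted p = 0.0849, edgeR), and the 2 group means differed by 1.62-fold. Cox4i1, the regulatory subunit that binds ATP, read 2749.5, 2362, 2318 and 2579.6 CPM and 2214, 2099, 2301 and 2303 CPM. The groups were apart by a narrow gap, and the log2 fold change was -0.26 ± 0.13 (adjusted p = 0.406, edgeR).

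Cox8a, a small subunit present in all tissues, read 1853, 2046, 1621 and 1709 CPM and 1575, 1391, 1627 and 1685 CPM, with overlap. Cox6c read 960.0, 888, 753 and 742 CPM and 992, 996, 592 and 978 CPM, with protrusion 3 as the lowest of all 8. Cox5a was at 989.6 to 1079.6 CPM in open neural tube and 946 to 1265 CPM in protrusions. Cox7a2l, which helps join complexes III and IV, read 83.2, 136, 254 and 193 CPM and 132, 606, 382 and 330.3 CPM, with protrusion 1 inside the range of the open neural tubes (log2 1.03 ± 0.45, adjusted p = 0.311, edgeR).

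Several complex IV subunits exist as a general form and a form known from particular tissues, and for subunits 4, 6a and 8 the general form had the higher level. Cox4i1 stood 178-fold above Cox4i2, the form known from lung and from low oxygen, whose values were 5.43, 0.176, 14.8 and 1.91 CPM and 4.25, 31.3, 7.26 and 41.5 CPM. Protrusions 2 and 4 were the highest for Cox4i2, and the groups overlapped. Cox6a1 was at 93.2 to 118 CPM in open neural tube and 36.8 to 154 CPM in protrusions while its muscle form Cox6a2 had 0 reads, and Cox8a had its muscle form Cox8b, whose expected tag runs past its annotated end, at or under 0.119 CPM and its testis form Cox8c at 0.

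For subunit 6b the order of tag levels was the other way, and for 7a none can be read. Cox6b1, the general form, was at 0 to 1.86 CPM in open neural tube and 0.875 to 2.44 CPM in protrusions. Cox6b2, the testis form, was above it, at 1.18 to 4.23 CPM in open neural tube and 4.42 to 10.1 CPM in protrusions. Cox6b1 had 82 reads over all libraries, and so low a tag level does not show that its transcript was the rarer one. Cox7a1, the heart and muscle form, was at 4.05, 0, 0 and 4.06 CPM and 10.6, 6.45, 6.74 and 5.29 CPM, while Cox7a2, the general form, has no enzyme site and could not be counted. Cox6b2 and Cox7a1 were higher in every protrusion, at levels of a few CPM, with adjusted p of 0.567 and 0.671 in edgeR. The complex I gene Ndufa4, whose protein is also placed in complex IV, was at 4.94 to 7.04 CPM in open neural tube and 3.11 to 4.11 CPM in protrusions, lower in each protrusion (adjusted p = 0.708, edgeR), and its paralog Ndufa4l2, known from low oxygen, was at 0 in all open neural tubes and reached 1.08 CPM in protrusion 4.

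In complex V, 11 of 15 genes were tested and the median of their log2 fold changes was -0.12. At an unadjusted p under 0.05 in edgeR, 2 were higher and 3 lower. That share of 45.5% of 11 genes stood beside 15.3% of all genes tested and 33.9% of those of at least 100 CPM. Atp5b read 9342, 8989, 9636 and 6590.2 CPM in open neural tube and 6756, 6013, 6788 and 5128 CPM in protrusions. Open neural tube 14 lay below protrusions 1 and 3, so the groups overlapped; the log2 fold change was -0.58 ± 0.16 (adjusted p = 0.107, edgeR). The other 4 genes of the F1 part, the head and its central stalk, had overlapping groups except Atp5d. Atp5d, the delta subunit of its stalk, read 751, 689, 753 and 632 CPM and 1130.5, 879, 846 and 1056 CPM, higher in every protrusion (log2 0.38 ± 0.17, adjusted p = 0.316, edgeR). Atp5c1, the rotating gamma subunit, was at 371 to 642 CPM in open neural tube and 502 to 934 CPM in protrusions (adjusted p = 0.353, edgeR).

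The ring that turns with the proton flow is made of identical copies of subunit c, which is encoded by 3 genes. Atp5g3 read 1054, 398, 706 and 691 CPM and 360.2, 346, 1209 and 368 CPM; protrusion 3 was the highest of all libraries, while the other 3 protrusions were the lowest. Atp5g1 read 242, 431, 214 and 247 CPM and 187, 176, 147 and 173 CPM, lower in every protrusion (log2 -0.80 ± 0.23, adjusted p = 0.111, edgeR), with the limit that its tag occurs in many genes. Atp5g2 was at 0.

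Among the stalk and membrane subunits, Atp5f1, subunit b of the outer stalk, read 22.6, 2.999, 26.4 and 11.5 CPM and 78.0, 56.5, 76.7 and 63.9 CPM. Each protrusion was above each open neural tube (log2 1.99 ± 0.55, adjusted p = 0.103, edgeR), and this gene too shares its tag. Atp5j2, subunit f, was at 51.5 to 63.5 CPM in open neural tube and 25.4 to 48.0 CPM in protrusions, lower in every protrusion (adjusted p = 0.201, edgeR). Atp5k, subunit e, read 106, 129.9, 109 and 92.0 CPM and 214, 152, 5.51 and 121 CPM; protrusion 3 stood far below the other 7 libraries.

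Other genes of the same system gave no adjusted call. Atpif1, the inhibitor protein of ATP synthase, which lies outside the rule, read 2864, 2387, 3169 and 2828 CPM in open neural tube and 2121, 1379.8, 1106 and 1809 CPM in protrusions. The groups were apart (log2 -0.89 ± 0.23, adjusted p = 0.0849, edgeR), in the same direction as Atp5b and Cox7b. Atpif1 is 1 of 3 tested genes of a list of subunits outside the rule. In that list 2 genes were below 0 and 1 above, from log2 -0.89 to 0.88 with a median of -0.18. Of the assembly factors, 28 of 44 were tested and 0 called by edgeR (2 higher and 2 lower at an unadjusted p under 0.05), with a median log2 fold change of 0.06. Of these the most abundant were Cox17, which carries copper to complex IV, and Cox11, which inserts it; Cox17 was at 271 ± 65.6 CPM in open neural tube and 251 ± 45.0 CPM in protrusions (SD, n = 4 each), and Cox11 at 120.1 ± 9.05 CPM in open neural tube and 106 ± 17.3 CPM in protrusions (SD, n = 4 each).

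The 17 genes of mitochondrial transcription and biogenesis that were tested had a median of 0.42, with 0 called (2 higher and 0 lower at an unadjusted p under 0.05, edgeR); their summed level was 1071 ± 89.5 CPM in open neural tube and 1317 ± 116 CPM in protrusions (SD, n = 4 each), without overlap, but only 1 of the 17 genes (5.88%) had groups that did not overlap. The most abundant of them, Ssbp1, which binds single-stranded mitochondrial DNA, was at 343 ± 32.5 CPM in open neural tube and 484 ± 66.6 CPM in protrusions (SD, n = 4 each), and Peo1, the mitochondrial DNA helicase, was at 250.4 ± 62.8 CPM in open neural tube and 199 ± 48.2 CPM in protrusions (SD, n = 4 each). For 16 citrate cycle genes the median was 0.24 with 0 called (2 higher and 2 lower at an unadjusted p under 0.05), and their sum overlapped at a ratio of 1.00. Its most abundant genes were Cs, citrate synthase, at 548 ± 34.5 CPM in open neural tube and 460.2 ± 29.9 CPM in protrusions (SD, n = 4 each), and Pdha1, a subunit of pyruvate dehydrogenase, at 271 ± 45.8 CPM in open neural tube and 200.2 ± 22.8 CPM in protrusions (SD, n = 4 each). The mitochondrial ribosome, another set of nuclear-encoded mitochondrial genes, had 72 tested genes, 0 called (10 higher and 8 lower at an unadjusted p under 0.05), a median of 0.01 and 25.0% of genes without overlap. Mrpl18 was at 518 ± 61.4 CPM in open neural tube and 390.1 ± 70.3 CPM in protrusions (SD, n = 4 each), and Mrpl13 at 376 ± 66.1 CPM in open neural tube and 403 ± 73.9 CPM in protrusions (SD, n = 4 each). The proteasome, a large complex outside mitochondria, had 35 tested genes, 1 of them (Psma2) past the threshold, a median of -0.05 and 22.9% without overlap. Psma2 fell, at 271 ± 40.6 CPM in open neural tube and 105 ± 12.5 CPM in protrusions (SD, n = 4 each) (log2 -1.45 ± 0.18, adjusted p = 0.0111, edgeR). The most abundant, Psma4 and Psma5, were at 1781 ± 269.5 CPM in open neural tube and 1125 ± 166 CPM in protrusions (SD, n = 4 each), and at 1191 ± 131 CPM in open neural tube and 1258 ± 152 CPM in protrusions (SD, n = 4 each). At an unadjusted p under 0.05 in edgeR stood 14.3% of the tested assembly factors and 11.8% of the biogenesis genes. The shares were 25.0% for the citrate cycle, 25.0% for the mitochondrial ribosome and 22.9% for the proteasome, beside 15.3% of all genes tested. Groups did not overlap for 21.4% of the tested assembly factors and 25.0% of the citrate cycle genes. Beside these and the shares without overlap given above stood 13.4% of all genes tested, and 21.8% of those of at least 100 CPM. The symbols of the 13 proteins encoded in mitochondrial DNA were looked for and 0 matched. The nuclear and mitochondrial subunits of the complexes could therefore not be compared.

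Promoters of these genes are known for binding sites of NRF1, of the ETS factor GABPA and of YY1. RefSeq promoters (GRCm38.p6, 250 bases before to 50 after the start) were found for 68 of the 84 subunit genes and searched on both strands for GCGCATGCG (NRF1), CCGGAAGT (GABPA) and AAGATGGCG (YY1), which do not contain one another. A gene with several promoters was counted when any of them matched. NRF1 letters were in 9 genes (13.2%, beside 1.95% of all 27025 genes with a promoter). GABPA letters were in 5 (7.35% beside 4.31%) and YY1 letters in 7 (10.3% beside 1.64%). Any of the 3 was in 20 (29.4% beside 7.48%, and 37.7% of 69 mitochondrial ribosome genes). The promoters of Ndufa11, the tested member with the most negative fold change, and of Cycs are shown with the NRF1 letters in capitals.
Ndufa11 (chr17:56717512-56717811, plus strand): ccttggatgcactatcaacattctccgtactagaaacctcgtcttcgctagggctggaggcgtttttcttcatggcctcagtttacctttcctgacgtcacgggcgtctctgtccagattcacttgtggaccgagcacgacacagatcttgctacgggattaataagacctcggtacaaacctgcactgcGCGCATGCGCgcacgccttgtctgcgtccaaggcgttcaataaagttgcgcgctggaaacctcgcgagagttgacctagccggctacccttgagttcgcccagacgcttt
Cycs (chr6:50566520-50566819, minus strand): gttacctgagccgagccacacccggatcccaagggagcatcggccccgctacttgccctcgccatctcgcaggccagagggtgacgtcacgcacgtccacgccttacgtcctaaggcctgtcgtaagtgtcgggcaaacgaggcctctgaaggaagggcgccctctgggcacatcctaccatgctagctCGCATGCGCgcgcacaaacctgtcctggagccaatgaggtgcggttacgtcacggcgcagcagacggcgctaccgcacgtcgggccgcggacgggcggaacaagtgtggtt
A match describes the sequence and is not a measured site, and no relation between these letters and the fold changes was tested.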

How the data were processed

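The deposited files hold whole-number counts of SAGE tags per gene symbol, made by the authors, not normalized. Build mm9 is named in the submitters' processing notes. Not given in the sources are the aligner, whether strand was used and what was done with a tag that fits more than 1 gene. Groups and the open neural tube numbers come from the labels; protrusions were numbered in the order of listing. CPM is the count over the library total, 5668054 to 16655583 reads. Reads carry no molecular identifiers, so copies cannot be told from molecules.

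Protrusion was compared with open neural tube in R 4.3.3 with edgeR 4.0.16 (filterByExpr with a minimum count of 10, TMM factors, robust quasi-likelihood test, two-sided) on all 8 libraries, with Benjamini-Hochberg adjustment over all 11036 genes tested and a threshold of 0.05. Standard errors came from the F statistic. The common dispersion was 0.556. The fitting script was tested on simulated data. DESeq2 1.42.0, limma 3.58.1 (voom, with and without sample weights), other scalings, filters and denominators, and leaving out each library were alternatives. Sums over members were given no test.

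The members and gene lists were chosen with earlier results of these data known. Values are given for the 3 most abundant tested members and the 2 of smallest p in each complex, for paralog sets, Cyc1, Cycs and the Sdh genes, and for the 2 most abundant genes and those past the threshold of the other gene lists; cell type markers are given as sums, with values for Tbx6 alone. The exception is the list of subunits outside the rule, where values are given for Atpif1 alone. Other members named were chosen after their values were seen, mostly for an unadjusted p under 0.05 or groups that do not overlap. Expected tags were matched through GENCODE M21, where 2 members were found by an older symbol. Protein sequences were not used here. Of the members, 1 is counted in the totals but not reported here by name or drawn by name in the figures.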

Additional observations from a re-analysis of the deposited data

Results flagged for a closer look

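Each of the 73 members with reads and 6 sums (all members and each complex) was tested in each group. Of these 158 groups of 4 libraries, 15 held a library whose gap to its nearest neighbour, divided by the range of the group, exceeded Dixon's 95% critical value for 4 samples. For normally distributed values chance would flag about 1 in 20 groups, and these counts need not follow that rate. A group with reads in 1 library only is always flagged, as for Cox6b1 and Sdhc in open neural tube. A group at 0 in all its libraries, such as Sdhb in open neural tube, cannot be flagged.

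Protrusion 3 stood apart for 3 genes: Atp5g3 at 1209 CPM against 346 to 368 CPM in the other protrusions, Atp5a1 at 764 CPM against 461 to 504 CPM, and Cox6c at 592 CPM against 978 to 996 CPM. Protrusion 2 was highest for Ndufb6, at 925 CPM against 556 to 578 CPM, and for Ndufc1, at 141 CPM against 129 to 130.4 CPM.

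In open neural tube, library 9 was highest for Uqcr11 (1376 against 1053 to 1092 CPM), for Ndufs1 (6.91 against 0 to 0.901 CPM) and for Ndufa6 (5.73 against 0.120 to 0.358 CPM), and lowest for Ndufa9 (22.8 against 33.9 to 35.1 CPM). Library 10 was highest for Atp5g1 (431 against 214 to 247 CPM) and Uqcrh (55.2 against 31.0 to 31.8 CPM). Library 9 was the only open neural tube with reads of Sdhc, at 3.55 CPM. Library 13 was the only open neural tube with reads of Cox6b1, at 1.86 CPM. Library 14 was highest for Uqcrc1 (519.6 against 379 to 398 CPM) and Ndufb2 (42.3 against 26.7 to 29.3 CPM).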

How the results depend on the processing

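Of the 67 tested members, 47 had the same direction under every one of 17 alternative fits in which they were tested, among them all 17 with an unadjusted p under 0.05, and 20 had the other direction in some, at log2 fold changes of up to 0.52 in size in the main analysis. Among 46 members followed singly, which include each with a fold change in the report, the log2 fold changes that turned were these. With limma-voom, Atp5k was at -1.11, Cox5a at -0.008, Cox6c at -0.052 and Cyc1 at 0.20; with sample weights, Atp5k was at -0.49, Cox5a at -0.003, Cox6a1 at 0.001, Cyc1 at 0.011 and Cycs at 0.003. With upper-quartile scaling Cox5a was at -0.007 and Cox6c at -0.004, and without scaling factors Cox6a1 was at 0.03 and Cycs at 0.062. Cycs was at 0.003 without the low-count filter and at 0.002 with that of 20 CPM. Leaving out single libraries spanned -0.22 to 0.014 for Atp5a1, -0.27 to 0.57 for Atp5k, -0.036 to 0.071 for Cox5a, -0.24 to 0.31 for Cox6a1, -0.042 to 0.23 for Cox6c, -0.78 to 0.022 for Cyc1, -0.16 to 0.18 for Cycs, -0.001 to 0.41 for Ndufb6 and -0.014 to 0.31 for Ndufs8. Without protrusion 1 and open neural tube 13, Atp5a1 turned to 0.011, Atp5k to -0.26, Cox6a1 to 0.10, Cox6c to -0.08 and Cycs to 0.11. In that fit Cox5a at 0.088, Cyc1 at -0.96, Ndufb6 at 0.44 and Ndufs8 at 0.46 kept their direction. The count of members past it, 0 in each direction in edgeR, became 4 higher and 7 lower with DESeq2. With limma-voom it was 2 lower, and 1 lower with sample weights, with upper-quartile scaling, without the low-count filter and with a filter of 20 CPM in 4 libraries; Ndufa12 was among these in all 5 and under DESeq2. It stayed at 0 when any single library was left out. Over all genes tested, 31 were higher and 36 lower. These counts became 408 and 387 with DESeq2, 221 and 149 with limma-voom, 103 and 86 with sample weights, and 53 and 104 with the filter of 20 CPM. Without scaling factors 50 were higher, and with upper-quartile scaling 62 were lower. Leaving out single libraries gave 1 to 87 higher and 0 to 85 lower. Without protrusion 1 and open neural tube 13, an alternative chosen after seeing the data, 115 genes were higher and 96 lower, among them 1 member, Sdhd.

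Of 174 medians and sums, 8 moved by more than the spread between replicates. The ratio of all member reads, 0.869, was 0.816 with TMM and 0.823 with relative log expression library sizes, and 0.853 to 0.886 when single libraries were left out. The median log2 fold change of complex II was 0.13 over 2 tested genes in the main fit. It ran from -0.65 (without open neural tube 14) to 0.26, and was -0.46 without protrusion 1 and open neural tube 13. That of complex III, 0.02, ran from -0.26 (without protrusion 1) to 0.17. The low-count filter was applied anew when libraries were left out, so the genes under these medians can differ from the main fit. Sdhd itself stayed at 0.77 to 1.01 when single libraries were left out. No paired analysis was possible because the groups share no replicate number. Genes under about 10 CPM rest on few reads, and open neural tube libraries missed more of them.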
